A study of Mus musculus with 40 samples.

Results

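The genes described here were Bdh1 and Acat1, which encode enzymes of ketone body synthesis, and the data were the places in fed mouse liver where the corepressors SMRT and NCoR and the histone deacetylase HDAC3 were found on the chromatin in and around them. A peak was counted when its centre lay inside either gene or within 50 kb of it. By that rule 26 of the 60254 peaks in the 3 lists were taken, 16 for Bdh1 and 10 for Acat1. Peaks whose centres lay at most 200 bp apart were treated as 1 site, which gave 14 of 35999 sites, 10 for Bdh1 and 4 for Acat1. The 2 genes, of 21938 annotated protein-coding genes, were taken for what they encode. The rule uses no peak value, but it was set with earlier results of these data known.

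The study used chromatin immunoprecipitation followed by sequencing (ChIP-seq) to map the repressor BCL6, its corepressors, the PPAR nuclear receptors and histone acetylation in the livers of fed and fasted mice. The series held 40 samples in 18 groups, and the 3 peak lists used here stood for 9 of them. These 9 came from male C57BL/6 mice fed ad libitum, with 3 libraries each for SMRT, NCoR and HDAC3, and the other 31 samples were not used here. All of these animals carried the Bcl6 fl/fl genotype, a floxed Bcl6 gene with no Cre to delete it, and the labels call them wild type. Whole liver was taken, so the peaks of hepatocytes and of other liver cells cannot be told apart. SMRT and NCoR were precipitated with custom polyclonal antibodies and HDAC3 with a commercial one.

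Ketone bodies are made in the mitochondria of hepatocytes from the acetyl-CoA that fatty acid oxidation releases, and they leave the liver to fuel brain, heart and muscle when food is short. ACAT1, mitochondrial acetyl-CoA acetyltransferase, joins acetyl-CoA units into acetoacetyl-CoA at the start of the route and catalyzes the reverse reaction where ketone bodies are burned. BDH1, 3-hydroxybutyrate dehydrogenase, stands at the other end of the route and interconverts acetoacetate and 3-hydroxybutyrate. SMRT and NCoR are related scaffold proteins that carry HDAC3 to DNA-bound repressors and nuclear receptors, and HDAC3 removes acetyl groups from histones.

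The NCoR list held 35138 peaks, the HDAC3 list 14462 and the SMRT list 10654. Each list was made by the authors from pooled replicates, and it gave a position for each peak but no height, score or value per animal. The sources used here did not state the sequencing depth. A library with fewer reads or a weaker antibody gives fewer peaks, so the lengths of the lists do not rank the cofactors. The counts below are therefore descriptions without an error between animals, and no comparison between groups was tested. Intervals given with a share are exact Clopper-Pearson 95% intervals, which cover counting error only.

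At 5 of the 14 sites all 3 cofactors were present, and these shared sites are printed here because most of the description turns on them. They are given 5′ to 3′ on the plus strand of mm10 from the RefSeq sequence of that build, 200 bases around the NCoR peak centre, with Bdh1 site 5 cut at the base before the transcription start site (TSS). Capitals mark matches to the motifs described further on, which are AGGTCA or its reverse complement TGACCT at 4 of the 5 sites and TATTGAT at Bdh1 site 1. Sites are numbered along the chromosome, so those of Acat1, a minus-strand gene, run against its direction of transcription.
Bdh1 site 1, chr16:31399282-31399481: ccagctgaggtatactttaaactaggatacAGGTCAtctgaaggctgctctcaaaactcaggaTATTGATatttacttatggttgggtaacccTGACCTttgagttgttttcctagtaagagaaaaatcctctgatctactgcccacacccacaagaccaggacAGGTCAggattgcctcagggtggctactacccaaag
Bdh1 site 5, chr16:31422107-31422279: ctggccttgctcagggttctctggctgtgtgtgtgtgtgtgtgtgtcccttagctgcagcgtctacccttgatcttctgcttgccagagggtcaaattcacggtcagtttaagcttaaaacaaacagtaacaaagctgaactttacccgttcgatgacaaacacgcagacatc
Acat1 site 1, chr9:53601596-53601795: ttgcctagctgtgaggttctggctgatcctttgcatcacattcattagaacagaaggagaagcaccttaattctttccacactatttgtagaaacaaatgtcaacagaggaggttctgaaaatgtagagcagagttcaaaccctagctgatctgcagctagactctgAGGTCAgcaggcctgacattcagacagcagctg
Acat1 site 2, chr9:53603979-53604178: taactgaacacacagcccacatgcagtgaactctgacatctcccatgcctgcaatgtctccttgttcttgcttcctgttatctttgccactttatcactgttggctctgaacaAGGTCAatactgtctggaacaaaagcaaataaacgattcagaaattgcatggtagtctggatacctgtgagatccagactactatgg
Acat1 site 3, chr9:53607289-53607488: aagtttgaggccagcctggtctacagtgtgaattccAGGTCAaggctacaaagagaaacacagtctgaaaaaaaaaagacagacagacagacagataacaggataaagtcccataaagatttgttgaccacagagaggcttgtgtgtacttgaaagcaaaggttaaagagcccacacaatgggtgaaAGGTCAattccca
The first of these lies far upstream of Bdh1, the second at its promoter, and the 3 of Acat1 lie together in the first intron of that gene.

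Acat1 (ENSMUSG00000032047.5) lies on the minus strand of chr9:53580522-53610382, and the annotation gives it 1 transcript of 12 exons. All 3 of its shared sites fell in intron 1, which runs over chr9:53598133-53610212 and is 12080 bp long. Counted from the TSS into the gene, the NCoR peaks of sites 3, 2 and 1 were centred at +2993, +6303 and +8686 bp. The sites were 3310 and 2383 bp apart and together spanned 5.69 kb. SMRT and HDAC3 peaks accompanied NCoR at each of them. No peak of any list fell within 1000 bp upstream or 100 bp downstream of the Acat1 TSS, and none fell in the gene beyond intron 1.

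The fourth Acat1 site carried NCoR alone and lay upstream of the gene, centred at -4119 bp from the TSS, at chr9:53614387-53614615. It is intergenic by its centre, but 34 bp of its interval overlapped the 3′ end of Cul5, which encodes a scaffold of ubiquitin ligases and runs toward Acat1 on the same strand. No peak was centred inside Cul5 or inside Npat, the gene beyond the other end of Acat1, which encodes a coactivator of histone gene transcription. The nearest TSS of another protein-coding gene was that of Npat for site 1, at 64.6 kb, and that of Cul5 for the other 3 sites, at 53.0 to 63.4 kb. Acat1 thus held the nearest protein-coding TSS for all 10 peaks of its window, and remained the nearest when TSSs of genes of every type were counted.

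Bdh1 (ENSMUSG00000046598.15) lies on the plus strand of chr16:31422280-31458901. The annotation gives it 3 transcripts of 7 exons each, which start at 31422280, 31428748 and 31429299 and share 1 coding region, at 31438035 to 31457091. Its 10 sites were spread over a longer stretch than those of Acat1, and its shared sites lay 22.82 kb apart. Distances are given here from the 5′ end of the gene, which is the TSS of the longest-reaching transcript.

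The farthest upstream was Bdh1 site 1, an intergenic shared site whose NCoR peak was centred at -22.90 kb (chr16:31399268-31399496). The study listed a primer pair named for Bdh1 for ChIP followed by quantitative PCR, and each primer had 1 exact match here. Its captions describe that assay with IgG, BCL6, PPARα or PPARδ antibodies, at sites shared by BCL6 and PPARα. They name no SMRT, NCoR or HDAC3 antibody, so the assay is no separate measure of the cofactors. The amplified region, chr16:31399316-31399378, is 63 bp long and its middle lies at -22933 bp from the 5′ end of the gene. All 63 bp lay within the SMRT, NCoR and HDAC3 peaks of site 1, whose centres were 30, 35 and 47 bp from the middle of the region. The region measured by that assay thus lies wholly inside site 1.

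Bdh1 site 5 was the promoter site and the other shared site of this gene. Its SMRT, NCoR and HDAC3 peaks were centred at -69, -73 and -48 bp from the TSS of the longest-reaching transcript. The other annotated Bdh1 starts, 6468 and 7019 bp downstream, had no peak in their promoter windows. Site 6, with NCoR alone, lay between the starts, at +3.52 kb in intron 1 of the longest-reaching transcript and at -2949 bp from the next start.

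HDAC3 joined NCoR without SMRT at Bdh1 sites 2 and 7. Site 2 was centred at -9.88 kb, over the start of Gm49736, an annotated long intergenic noncoding RNA of unknown function on the plus strand of chr16:31412467-31416491, with the NCoR centre at -64 bp and the HDAC3 centre at -21 bp from its TSS. Site 7 lay at +26.45 kb in intron 4. Inside the Bdh1 gene it was the only site with a second cofactor. Its sequence is printed because it also held the only FOX match among the 14 sites.
Bdh1 site 7, chr16:31448627-31448826: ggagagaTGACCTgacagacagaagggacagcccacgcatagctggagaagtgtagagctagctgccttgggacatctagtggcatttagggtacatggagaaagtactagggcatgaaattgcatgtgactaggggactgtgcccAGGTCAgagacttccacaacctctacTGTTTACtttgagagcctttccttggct
The capitals mark TGACCT first, then AGGTCA, and last the FOX motif TGTTTAC.

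The other 6 Bdh1 sites had NCoR alone. Besides site 6 they were site 3 at -7.17 kb, in an intron of Gm49736, site 4 at -2.57 kb, between Gm49736 and Bdh1, and site 8 at +31.93 kb, in intron 5. Sites 9 and 10 formed a pair 1094 bp apart beyond the 3′ end of the gene, at +70.85 and +71.94 kb, separated by 38.92 kb from site 8. The nearest TSS of another protein-coding gene was that of Apod, which encodes a lipocalin, for sites 1 to 8, at 84.6 to 139.4 kb. For sites 9 and 10 it was that of Dlg1, which encodes a scaffold protein of cell junctions, at 170.3 and 169.2 kb. All 16 Bdh1 peaks were therefore assigned to Bdh1 when protein-coding genes were used. Only 4 of the 16 remained with it when genes of every type were used, namely the 3 promoter peaks and site 4, and the rest went to the noncoding genes Gm49736, Gm15743, Gm49695 and Gm46560.

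**Figure D1:**
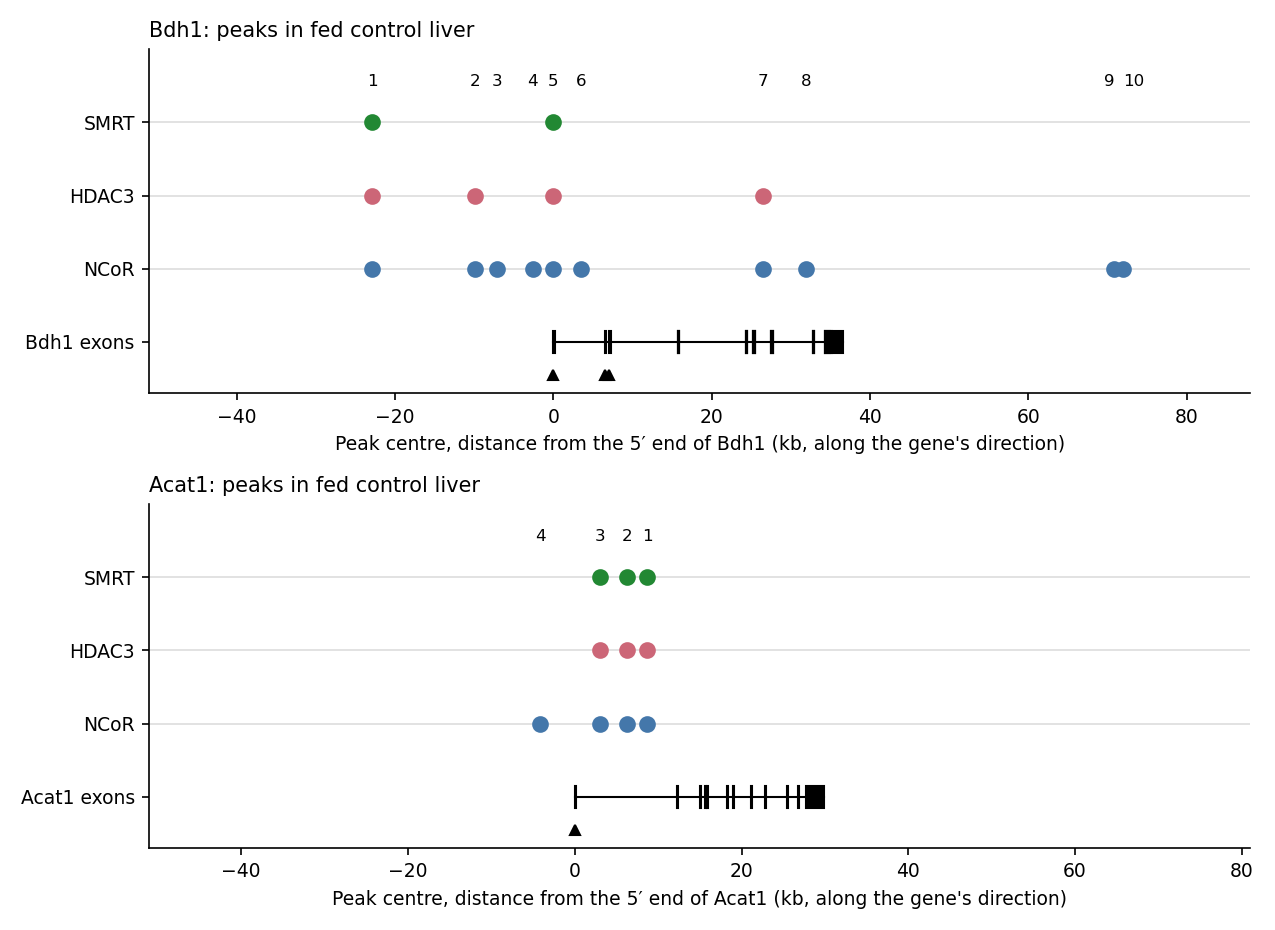
Centres of the SMRT, HDAC3 and NCoR peaks in fed control liver around Bdh1 (top) and Acat1 (bottom), in kb from the 5′ end of each gene along its direction of transcription. Black boxes are the exons of all annotated transcripts (the narrowest drawn wider than to scale), triangles are TSSs and numbers name the sites; the 3 shared sites of Acat1 sit together just inside the gene, while those of Bdh1 sit at -22.90 kb and at the promoter.

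By class, 5 of the 14 NCoR peaks near the 2 genes were shared with both SMRT and HDAC3 (35.7%, interval 12.8 to 64.9%), where 24.9% of all NCoR peaks were. A further 2 had HDAC3 without SMRT (14.3%, interval 1.78 to 42.8%), against a background of 14.8%. NCoR was alone at 7 (interval 23.0 to 77.0%), against 56.1% of all its peaks. Each background share lay inside the interval of the members. These intervals treat the peaks as independent, although they come from only 2 genes, and a difference from the whole list was not tested.

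The counts were also taken gene by gene. At Acat1 3 of 4 NCoR peaks were shared (interval 19.4 to 99.4%), and at Bdh1 2 of 10 were (interval 2.52 to 55.6%). These intervals overlap, and the difference was not tested. No NCoR peak near either gene had SMRT without HDAC3, a class that held 4.16% of the list.

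Read from the shorter lists, every SMRT peak near the genes was at a shared site, 5 of 5 (interval 47.8 to 100%), as were 81.9% of SMRT peaks in the whole series. Of the 7 HDAC3 peaks, 5 were shared (71.4%, interval 29.0 to 96.3%) and 2 had NCoR alone as a partner (28.6%, interval 3.67 to 71.0%), where the whole list gave 60.4% and 36.0%. No SMRT or HDAC3 peak near either gene lay apart from NCoR, which was also rare in the whole lists. Of all SMRT peaks 3.35% were alone and 0.901% had HDAC3 as the only partner, and of all HDAC3 peaks 2.95% were alone and 0.588% had SMRT as the only partner.

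The centres of the cofactor peaks lay close together at the shared sites. The full spread of the 3 centres was 11, 21 and 14 bp at Acat1 sites 1, 2 and 3, and 17 and 25 bp at Bdh1 sites 1 and 5. Over the 8739 shared NCoR sites of the series the median spread was 38 bp, with the middle 50% between 23 and 57 bp. All 5 values were below that median, and between 72.8% and 94.0% of shared sites were spread at least as widely. At Acat1 the SMRT centre was within 1 bp of the NCoR centre at each of the 3 sites, and the HDAC3 centre was 10 to 21 bp away. At the sites without SMRT, HDAC3 was 43 bp from NCoR at Bdh1 site 2 and 6 bp from it at site 7.

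**Figure D2:**
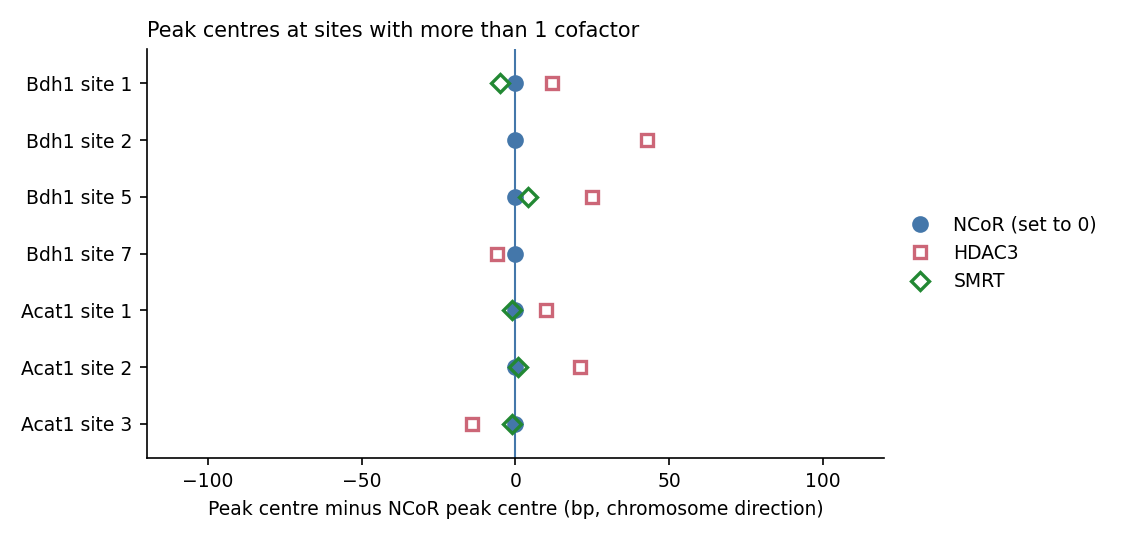
Position of the SMRT (diamonds) and HDAC3 (squares) peak centres relative to the NCoR centre (circles, set to 0), in bp along the chromosome, at the 7 sites with more than 1 cofactor. SMRT lies within 5 bp of NCoR at all 5 shared sites, and HDAC3 lies up to 43 bp away.

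Set beside all protein-coding genes, Bdh1 stood high for the number of NCoR peaks and Acat1 for the number of shared sites. An NCoR peak within 50 kb was common, found for 72.3% of the 21938 genes, and a shared site was found for 39.2%. These genes were not selected for expression in liver. The 10 NCoR peaks of Bdh1 were reached or passed by 7.31% of genes and the 4 of Acat1 by 39.1%, with a median of 2 over all genes. For shared sites the order was the other way round, and the 3 of Acat1 were reached by 10.4% of genes and the 2 of Bdh1 by 20.7%, with a median of 0.

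In the shorter lists the genes were closer in rank. Bdh1 had 4 HDAC3 peaks and Acat1 had 3, numbers reached by 12.7% and 21.2% of genes. Bdh1 had 2 SMRT peaks and Acat1 had 3, reached by 24.3% and 13.8%. The windows were of nearly equal length, 136622 bp for Bdh1 and 129861 bp for Acat1. Per 100 kb of window the NCoR density was 7.32 peaks at Bdh1 and 3.08 at Acat1, against a median of 1.76, and 6.43% and 33.0% of genes were at least as dense.

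The shared sites were also set beside those of genes with the same number of NCoR peaks. The 466 genes with 10 NCoR peaks had a median of 2 shared sites, which is the count of Bdh1. The 1785 genes with 4 NCoR peaks had a median of 1, and 79 of them (4.43%) had 3 or more, as Acat1 did. These shares are a description, and neither was tested.

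**Figure D3:**
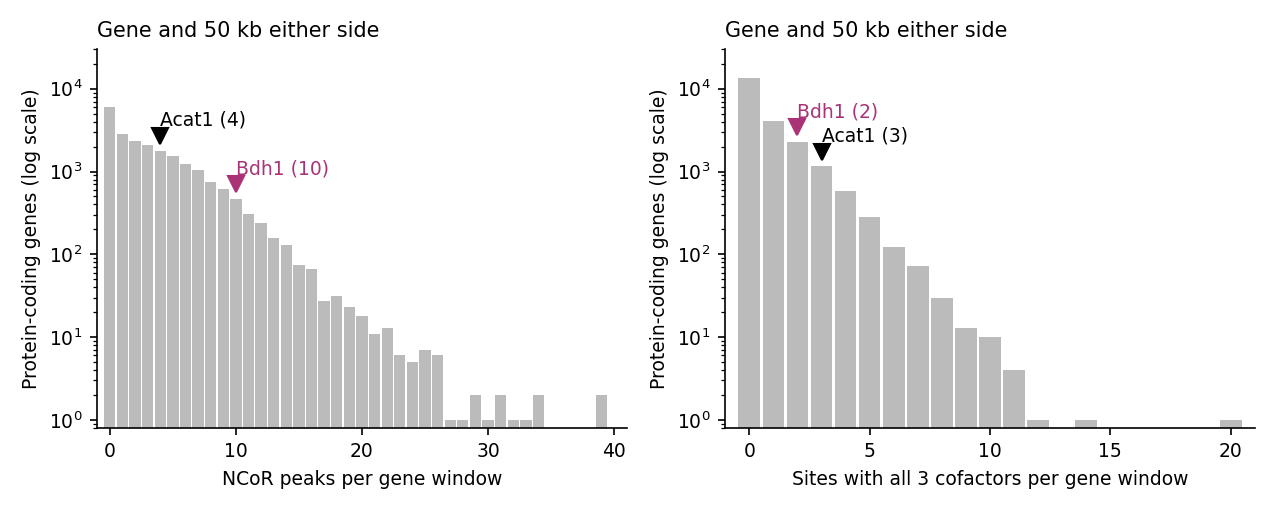
Number of protein-coding genes (log scale) by the number of NCoR peaks (left) and of sites with all 3 cofactors (right) in the gene and 50 kb either side. Triangles mark Bdh1, with 10 NCoR peaks and 2 shared sites, and Acat1, with 4 and 3.

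The counts were repeated for peaks inside the genes. Both genes had 3 NCoR peaks within the gene itself, a count reached by 11.3% of genes, but at Bdh1 none of these was shared and at Acat1 all 3 were. At least 3 shared sites within the gene were found for 491 genes (2.24%). In 30 of those 491 (6.11%), 3 shared sites fell within a stretch no longer than the 5.69 kb of Acat1. That length was taken from Acat1 itself, so the share is a description and was not tested.

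The peaks were also placed relative to promoters, taken as the 1000 bp before a TSS and the 100 bp after it. Of the 14 NCoR peaks, 1 lay at the promoter of a protein-coding gene, Bdh1 site 5, where 10.4% of all NCoR peaks did. When promoters of genes of any type were used, Bdh1 site 2 at the start of Gm49736 was added, which gave 2 of 14, against 12.8% of all NCoR peaks. The count depends on the promoter's length, and with 5000 bp either side of a protein-coding TSS it was 3 near Bdh1 and 2 near Acat1. The share of all NCoR peaks is not given for that length, so these counts cannot be set beside the shares above. Among shared NCoR sites of the series, 5.80% were at a protein-coding promoter and 52.2% lay elsewhere within a gene. Bdh1 site 5 belongs to the first group and the 3 Acat1 sites to the second.

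The GC content of the sites lay within the usual range of the list. In the 200 bp windows the GC content ran from 42.5% at Acat1 site 3 to 61.5% at Bdh1 site 9, with a median of 48.0% over all NCoR peaks and a range of 36.5 to 67.0% from the 5th to the 95th percentile. The shared Acat1 sites held between 0 and 1 CpG dinucleotide. The Bdh1 promoter site held 6, a number reached by 17.7% of NCoR windows. Repeat-masked sequence made up 50.5% of the window at Acat1 site 3 and 48.5% at Acat1 site 4. At least as much of the window was masked at 4.14% of NCoR peaks as at Acat1 site 4, and only uniquely mapped reads were kept by the authors.

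SMRT, NCoR and HDAC3 do not read DNA sequence by themselves, so the windows were searched for motifs of factors known to act in liver. The hexamer AGGTCA, the half-site to which many nuclear receptors bind, was present on either strand at 10 of the 14 sites and at 4 of the 5 shared ones. It was present in 36.2% of all NCoR windows and in 39.6% of shared ones. Of flanking windows, set 2 kb away on each side, 12.6% held it. All 4 Acat1 sites had a match. At Bdh1 the matches were in sites 1, 3, 6, 7, 8 and 10, and sites 2, 4, 5 and 9 had none, the promoter site included.

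Some sites held the hexamer more than once, and 15 matches were counted in all. Bdh1 site 1 held 3, centred at -68, -5 and +66 bp from the NCoR centre, a number that 1.06% of NCoR windows reached. In the match at -68 bp, 5 of the 6 bases were repeat-masked. The first and second matches, at 31399312 to 31399317 and 31399375 to 31399380, overlap the start and the end of the region amplified by the study's Bdh1 primers, and the HNF6 match at 31399345 to 31399351 lies within it. Bdh1 sites 7 and 10 and Acat1 site 3 held 2 each, and 7.26% of NCoR windows held 2 or more. At Acat1 sites 1 and 2 the single match was at +69 and +15 bp, and at site 3 the matches were at -62 and +89 bp, the former in repeat-masked sequence.

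The matches were not gathered at the centres. In windows of 100 bp, 4 of the 14 sites held a half-site, beside 23.9% of all NCoR peaks and 6.43% of flanking windows, and in windows of 400 bp 10 did, beside 45.7% and 23.4%. The share of members with a match was above that of the list at 200 bp and closer to it at 100 bp.

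**Figure D4:**
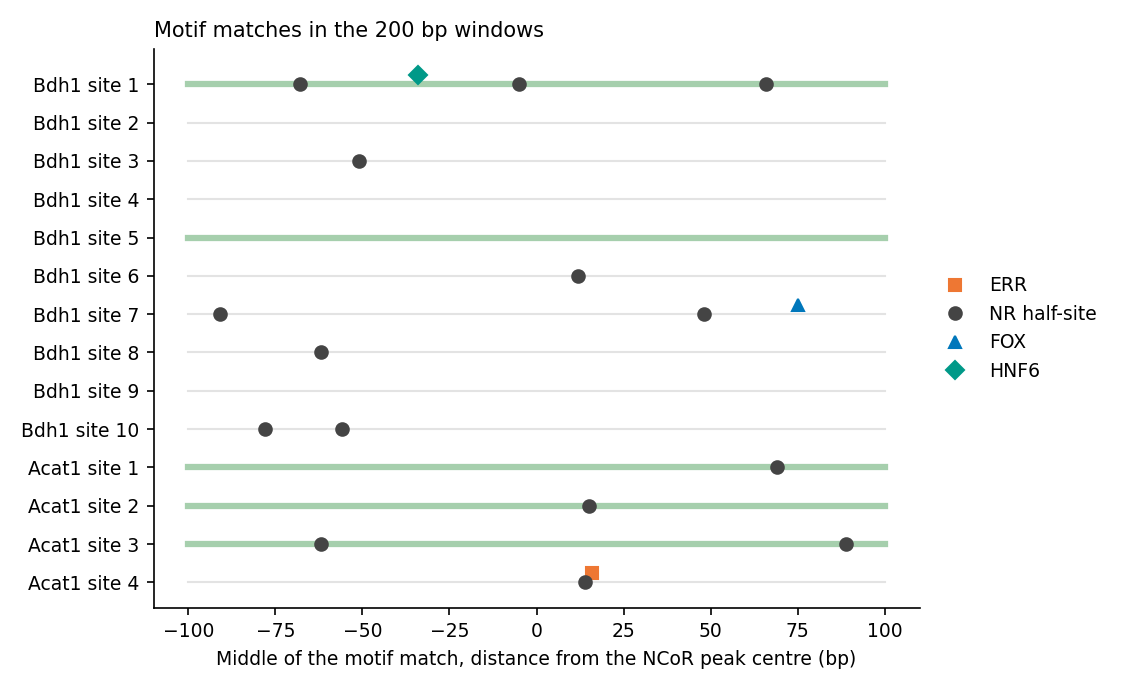
Middle of each motif match relative to the NCoR peak centre, in bp along the chromosome, in the 200 bp windows of the 14 sites; the thick green lines are the 5 shared sites. Bdh1 site 1 holds 3 nuclear receptor (NR) half-sites, and Bdh1 sites 2, 4, 5 and 9 hold no match.

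The other motifs were rare near the genes, as they were in the list. The ERR motif TCAAGGTCA, a half-site with the extension that estrogen-related receptors prefer, was found once, on the minus strand of the NCoR-only Acat1 site 4, where it contains the half-site counted above. It was present in 1.35% of NCoR windows. All of its 9 bases at that site were repeat-masked. The site is printed up to the base before Cul5, with the ERR match in capitals.
Acat1 site 4, chr9:53614401-53614581: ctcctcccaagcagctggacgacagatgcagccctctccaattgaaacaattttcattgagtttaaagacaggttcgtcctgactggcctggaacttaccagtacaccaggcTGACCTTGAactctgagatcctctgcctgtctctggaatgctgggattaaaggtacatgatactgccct
The FOX motif TGTTTAC, bound by forkhead factors such as FOXA, was found once, 75 bp from the centre of Bdh1 site 7, and 7.74% of NCoR windows held it. The HNF6 motif, searched as TATTGAT or TATCGAT, was found once, at Bdh1 site 1, and 6.89% of NCoR windows held it.

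No site near either gene held the remaining motifs as searched. These were the BCL6 or STAT palindrome TTCNNNGAA (7.10% of NCoR windows), the HNF4 motif CAAAGTCCA (2.09%), the C/EBP motifs TTGCGCAA, TTGTGCAA, TTACGCAA and TTATGCAA (5.52% together), the cyclic AMP response element TGACGTCA (0.552%) and the ETS motif CCGGAAGT (0.757%). The DR1, a direct repeat of the half-site with 1 base between that PPAR with RXR and HNF4 bind, was also absent and was present in 1.54% of windows. In flanking windows the shares were 6.32% for the BCL6 or STAT palindrome, 0.316% for HNF4 and 1.22% for C/EBP. They were 0.139% for the cyclic AMP response element, 0.182% for ETS and 0.161% for the DR1. The palindrome as searched was thus nearly as common beside the peaks as in them. The DR1 was searched in a form that allows more than 1 base at some positions and has A between the repeats, and the others with the letters given, all on both strands. Their absence from these windows says nothing of whether the factor was bound.

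Closeness to a DR1 was also counted against a stricter form, as mismatches to AGGTCA over the 12 bases of its repeats with any base between. The fewest mismatches in a window were 2 at Bdh1 sites 1 and 4 and at Acat1 sites 2 and 3, a value reached by 12.9% of NCoR windows. The median was 3 over the 14 sites and 4 over all NCoR peaks. At Bdh1 site 4, which had no exact half-site, the best stretch was a match on the minus strand at chr16:31419717-31419729, which reads cgacctttggcct on the plus strand, 16 bp from the NCoR centre. At Acat1 site 3 it was gggtgaaaggtca, on the plus strand, at chr9:53607469-53607481, 86 bp from the centre.

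Genes that act beside Bdh1 and Acat1 were counted in the same way. A list of 10 other genes of ketone body metabolism held the enzymes that use or remake ketone bodies, monocarboxylate carriers, relatives of ACAT1, an acyl-CoA synthetase and the fasting hormone gene Fgf21. All 10 had an NCoR peak within 50 kb, against 72.3% of all genes, and 8 had a shared site, against 39.2%. That background of all protein-coding genes was not matched to the list for expression in liver. The median was 7 NCoR peaks and 3 shared sites per gene, where all protein-coding genes had medians of 2 and 0. Acat1 matched that median of shared sites with fewer NCoR peaks, and Bdh1 had more NCoR peaks than the median with fewer shared sites.

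Within the list Aacs, which encodes the cytosolic enzyme that turns acetoacetate back into acetoacetyl-CoA, had the most shared sites, 5 among 10 NCoR peaks. Slc16a6, which encodes a carrier linked to ketone body export from hepatocytes, had 4 among 8. The genes with no shared site were Oxct1 and Bdh2, each with 1 NCoR peak and no HDAC3 or SMRT peak. Oxct1 encodes the enzyme by which tissues other than liver activate acetoacetate, and Bdh2 encodes a cytosolic dehydrogenase related in name to Bdh1.

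A list of 15 genes of mitochondrial fatty acid oxidation, the pathway that supplies acetyl-CoA to ACAT1, gave like counts. All 15 had an NCoR peak and 13 had a shared site, with medians of 6 NCoR peaks and 2 shared sites. Hadh, which encodes a short-chain hydroxyacyl-CoA dehydrogenase, had the most, 6 shared sites among 12 NCoR peaks. Cpt1a, which encodes the carnitine palmitoyltransferase that controls entry of fatty acids into mitochondria, had 4 among 8. No shared site was found for Acadvl, which encodes the very long-chain acyl-CoA dehydrogenase and had 6 NCoR and 3 HDAC3 peaks but none of SMRT, nor for Etfb, which encodes a subunit of the electron transfer flavoprotein and had 3 NCoR peaks alone.

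The lists were small, and no test was made of them. Neighbouring genes such as Acat2 with Acat3 and Hadha with Hadhb share parts of their windows, so their sites are counted more than once. As at Acat1, 3 or more shared sites lay within the gene itself at Acat3, Acss3, Cpt1a and Decr1, genes that are named because their values were seen and not by a rule.

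**Figure D5:**
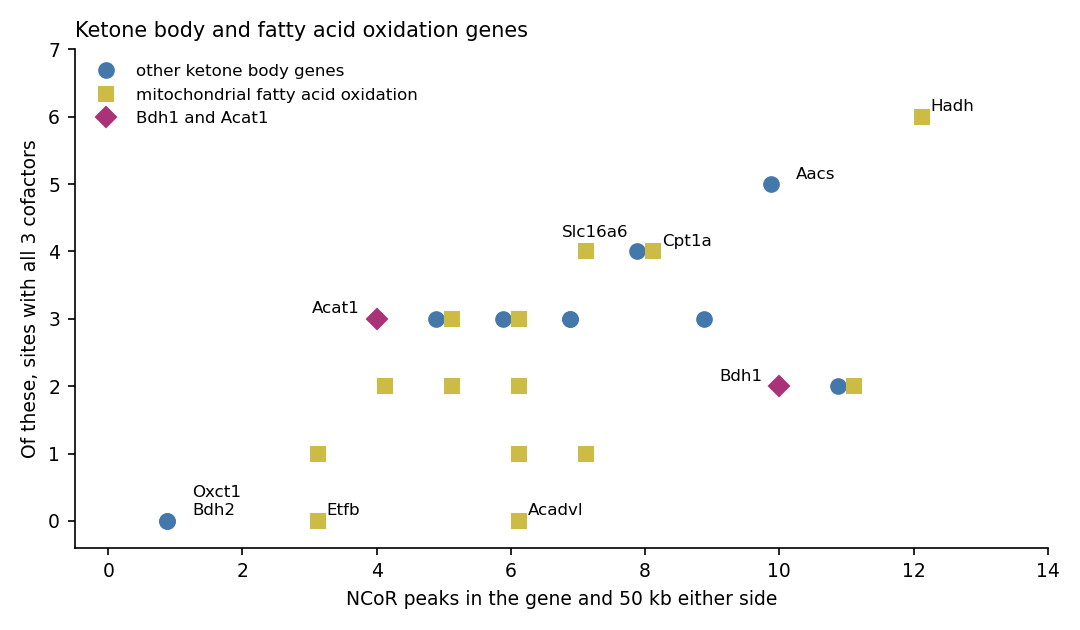
NCoR peaks (horizontal axis) and sites with all 3 cofactors (vertical axis) in the gene and 50 kb either side, for Bdh1, Acat1, 10 other ketone body genes and 15 mitochondrial fatty acid oxidation genes. Each point is 1 gene or several with equal counts, and circles and squares are set slightly to the left and right of their whole number so that they can be told apart; Acat1 has 3 shared sites among 4 NCoR peaks and Bdh1 has 2 among 10.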

How the data were processed

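The authors aligned single-end reads to mm10 with Bowtie, keeping uniquely mapped reads and 1 read per start position, and called peaks with HOMER against input after pooling the 3 libraries of each cofactor. Of these, the authors kept peaks that passed fold and false discovery thresholds when DESeq2 was run on the single libraries. The deposited lists give the chromosome, start and end of each peak as their only values. All intervals of a list have 1 length (end minus start), 228 bp in the NCoR list and 212 bp in the others, and 0 peaks lay past a chromosome end. Depth and the precision it would give could not be read from these files, and peaks in poorly mappable sequence would be missed by the unique mapping.

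Peak centres were placed on GENCODE M21 basic genes and on the RefSeq sequence of GRCm38, the assembly of mm10, with Python 3.11.15, numpy 2.4.6, scipy 1.17.1 (intervals) and matplotlib 3.10.9. Coordinates are printed as the lists and the annotation give them. As in the study, a distance between centres of up to 200 bp counted as overlap. The promoter, chosen here, was the 1000 bp before a TSS and the 100 bp after it. Motifs were searched on both strands in 200 bp around NCoR centres and in windows 2 kb to either side. The scripts recovered the planted classes, nearest TSSs and motifs when tested on simulated data.

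Genes named were the 2 members, each gene that held the nearest TSS of a peak in their windows or overlapped such a peak, and, of each list, the 2 genes with the most shared sites and those with none (ties by symbol); exceptions are stated in the text. The members and lists were chosen with earlier results of these data known. Other enzymes of the pathway were not analysed here. Alternative windows, overlap rules, TSS sets and motif windows were tried.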

Additional observations from a re-analysis of the deposited data

How the results depend on the processing

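Of 50 values recomputed under the alternatives, 38 kept within 1.5 times the reported count and 12 did not. With the gene body only, Bdh1 had 0 SMRT peaks, 3 NCoR peaks, 1 HDAC3 peak and 0 shared sites, and with 10 kb either side it had 1 SMRT peak and 1 shared site, since its other sites lie outside these windows. With TSSs of genes of every type, 4 peaks were assigned to Bdh1, and 2 NCoR peaks near it were at a promoter. With promoters of 5000 bp either side, 3 NCoR peaks near Bdh1 and 2 near Acat1 were at one, with no share of all NCoR peaks to set beside them. In 100 bp windows the half-site was at 2 sites of each gene. The shared sites of Acat1 numbered 3, and those of Bdh1 2, under all 3 other overlap rules (centres within 100 or 400 bp, or intervals sharing at least 1 bp). The promoters of every gene type, the DR1 mismatches and the length of stretch taken from Acat1 were chosen after seeing the data. The comparison with genes of the same number of NCoR peaks was not set in advance. No paired analysis was possible because the libraries of a cofactor were merged into a single list with no value for any library, which also kept replicates from being left out. A stricter threshold was not run, as the lists carry no score. Depth per library was not available in the sources used here, so a missing SMRT or HDAC3 peak may be a site that was not detectable.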
